A study of Mus musculus with 7 samples.

Results

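The 10 circadian clock genes Clock, Arntl, Per1, Per2, Per3, Cry1, Cry2, Nr1d1, Nr1d2 and Dbp were taken by gene symbol from a table of 24319 genes measured by RNA sequencing in 7 libraries of mouse embryos from somatic cell nuclear transfer (SCNT): an enucleated oocyte received a cumulus cell as its nuclear donor. All 10 were present, and 8 of them passed the filter for testing: an FPKM (fragments per kilobase of transcript, scaled to the number of mapped fragments) of at least 1 in 2 or more libraries. Per1 and Per2 did not.

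The 3 groups were CROC+K+M (2 libraries; vitrified and warmed recipient oocytes, injected Kdm4a mRNA and 10 µM melatonin), CROC+K (3 libraries; vitrified and warmed oocytes, injected Kdm4a mRNA) and FOC+K (2 libraries; fresh oocytes, injected Kdm4a mRNA). Every group therefore carried the Kdm4a mRNA, which encodes a histone H3 lysine demethylase used to help SCNT embryos develop. The strain was labelled B6D2F1, the genotype wild type and the stage 2-cell in each library, although the treatment text, shared by all libraries, names blastocysts as well as embryos at that stage and a vehicle. RNA came from pools of embryos, so that a library is an average over many embryos. The time of day at which embryos were collected, which bears on any clock gene, is not given in the labels.

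The mammalian clock is a feedback loop of transcription. CLOCK and ARNTL (also called BMAL1) form a pair that binds E-box sequences and activates the Per and Cry genes, whose proteins enter the nucleus and inhibit the pair. In a side loop the nuclear receptors REV-ERBα (Nr1d1) and REV-ERBβ (Nr1d2), themselves E-box targets, repress Arntl through elements that they share with the activating ROR receptors. DBP, another target of the pair, activates genes through D-box sequences. Oocytes carry stored clock transcripts, and in early mouse embryos a working rhythm is generally held to appear only later in development.

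Promoter sequences are shown for 4 of the genes because members of the loop are known to act on one another through such elements: Per3 and Dbp, whose FPKM moved together across the libraries, and Cry1 and Nr1d1, which have canonical or variant E-boxes. Each is the 250 bases before the start of transcription, 5′ to 3′ on the gene's own strand, from the RefSeq promoter table of GRCm38.p6: Per3 at chr4:151044666-151044915 (minus strand), Dbp at chr7:45704997-45705246 (plus strand), Cry1 at chr10:85185055-85185304 (minus strand) and Nr1d1 at chr11:98775378-98775627 (minus strand). Capitals mark motif matches: D-boxes in Per3, an E'-box and an E-box in Cry1, and an E'-box in Nr1d1.
Per3: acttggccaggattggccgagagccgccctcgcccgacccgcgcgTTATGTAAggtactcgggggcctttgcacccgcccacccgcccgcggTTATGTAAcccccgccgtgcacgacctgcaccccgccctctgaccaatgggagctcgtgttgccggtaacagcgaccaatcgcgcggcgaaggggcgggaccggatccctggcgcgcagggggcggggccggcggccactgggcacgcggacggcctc
Dbp: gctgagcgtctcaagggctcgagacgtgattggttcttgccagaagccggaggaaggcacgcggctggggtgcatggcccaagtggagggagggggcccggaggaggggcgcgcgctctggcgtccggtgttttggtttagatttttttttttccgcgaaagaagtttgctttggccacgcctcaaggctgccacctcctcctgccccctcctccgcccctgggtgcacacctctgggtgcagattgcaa
Cry1: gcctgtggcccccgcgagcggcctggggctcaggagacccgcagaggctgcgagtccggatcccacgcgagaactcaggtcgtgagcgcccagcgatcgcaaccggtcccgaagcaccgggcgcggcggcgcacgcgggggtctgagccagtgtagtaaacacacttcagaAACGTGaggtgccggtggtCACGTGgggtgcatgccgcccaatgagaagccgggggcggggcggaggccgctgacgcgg
Nr1d1: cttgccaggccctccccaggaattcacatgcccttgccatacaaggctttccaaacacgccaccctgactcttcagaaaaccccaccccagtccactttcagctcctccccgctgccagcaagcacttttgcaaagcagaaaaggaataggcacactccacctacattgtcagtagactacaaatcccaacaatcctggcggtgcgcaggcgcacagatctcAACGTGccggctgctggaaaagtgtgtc

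The motifs searched, on both strands and in the 300 bases that run from 250 before to 50 after the start, were the E-box CACGTG, the E'-box CACGTT, the D-box forms TTACGTAA and TTATGTAA, the element TAGGTCA of the ROR and REV-ERB receptors, and the cAMP response element TGACGTCA. The table held promoters of 9 of the 10 genes, 13 windows in all, and Per2 is only named here. The Per3 promoter held 2 D-boxes, at -205 and -158, counted to the first base of the match; 1.06% of the 32851 promoters in the table had a D-box and 0.0244% had 2 or more. Cry1 had an E-box at -60, found in 7.15% of all promoters, and an E'-box at -79, found in 4.68%. An E'-box also stood at -28 in Nr1d1 and at -166 in Cry2, and an E-box at -166 in the first of 2 Per1 promoters. The second of 2 Arntl promoters had the receptor element at +31, just inside the transcript; 2.61% of all promoters had one. No match lay in the windows of Clock, Nr1d2 and Dbp, and no member had the cAMP response element, which 1.79% of promoters had. No match overlapped another. These are matches of letters in a short window and do not show binding.

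Several properties of the libraries touch the values below. CROC+K+M replicate 1 had a summed FPKM of 27363 over 14 trophectoderm marker genes, all of them at 1 or more, against 69.7 to 143 and 7 to 9 genes in the other 6 libraries, so that the library labelled as 2-cell stage carried markers of the outer cells of the blastocyst; Cdx2, the defining factor of those cells, was at 6.97 there and listed at 0 in the other 6. The summed FPKM of the whole table was 552356 to 1017995 per library. The ribosomal precursor Rn45s exceeded 1000 FPKM in CROC+K replicate 1 and both FOC+K libraries. Summed 2-cell markers were 467 and 163 FPKM in CROC+K+M, 183, 788 and 1142 FPKM in CROC+K, and 464 and 207 FPKM in FOC+K. Markers of the oocyte, whose stored transcripts the early embryo inherits, summed to 4078 and 4152 FPKM in CROC+K+M, 5056, 5302 and 6697 FPKM in CROC+K, and 6520 and 6082 FPKM in FOC+K. Cumulus cell markers summed to 11.5 to 24.7 FPKM. No source used here gives the depth; the spacing of low values in the table corresponded to about 4120000 to 6380000 fragments per library if the smallest step is 1 fragment, which is approximate. An exact 0 in such a table can be a failed estimate, so genes at 0 are called listed at 0.

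The clock genes spanned a wide range of FPKM and kept a similar order in all libraries. By the median over 7 libraries the order was Dbp (59.6 FPKM), Cry1 (51.3), Nr1d1 (34.3), Arntl (18.9), Clock (18.3), Per3 (8.29), Nr1d2 (3.09), Cry2 (1.25), Per1 (0.685) and Per2 (0.213). FPKM is per transcript length, so these levels are set side by side as an approximate order. Division by length does not remove other differences between genes, such as the exonic bases that Dbp shares with Sphk2, described below. Among neighbours in the order, Nr1d1 was above Arntl, Clock above Per3 and Per3 above Nr1d2 in 7 of 7 libraries, and for Per3 and Nr1d2 alone the ranges over libraries did not overlap. Arntl exceeded Clock in 3 of 7 libraries and Dbp exceeded Cry1 in 5 of 7, so that the order within these pairs was not settled. Each family with more than 1 member was uneven: Per3 was far above Per1 and Per2, Cry1 above Cry2, and Nr1d1 above Nr1d2, in every library.

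**Figure D1:**
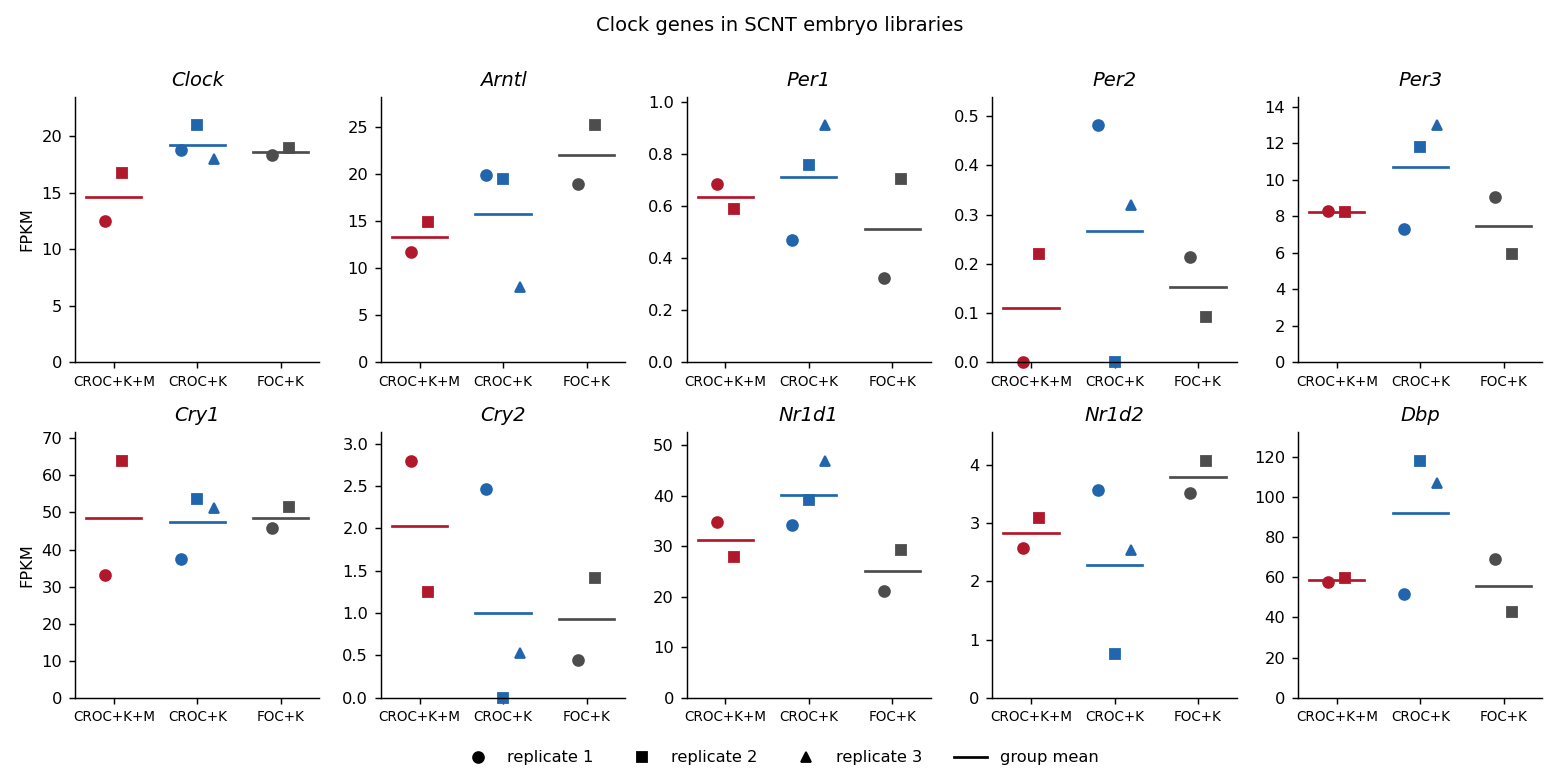
FPKM of the 10 clock genes (vertical axis, linear, its own scale per gene) in each library, by group from left to right CROC+K+M, CROC+K and FOC+K; points are libraries, the marker shape gives the replicate number, and lines are group means. Nr1d1 in CROC+K lies above both FOC+K libraries, while Dbp and Per3 are high in CROC+K replicates 2 and 3 and not in replicate 1.

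Among the activators, Clock encodes a DNA-binding protein that also has acetyltransferase activity. Clock had 12.5 and 16.7 FPKM in CROC+K+M, 18.8, 21.0 and 17.9 FPKM in CROC+K, and 18.3 and 18.9 FPKM in FOC+K. Both CROC+K+M libraries lay below the other 5, the split also seen in the summed oocyte markers. Oosp1 alone made up most of that sum, at 3072 and 3193 FPKM in CROC+K+M and 3548 to 5316 FPKM in the other 5. Of the 11 oocyte markers tested, 5 were lower in CROC+K+M without overlap against CROC+K (11.2% of all genes were) and 5 against FOC+K (19.7%). Among them, and named after their values were seen, were the oocyte growth factors Bmp15 (288.5 and 299.2 FPKM in CROC+K+M, 421.9 to 788.2 FPKM in the other 5) and Gdf9 (55.2 and 60.9 FPKM in CROC+K+M, 85.7 to 109.4 FPKM in the other 5). The part of stored oocyte RNA in the Clock values was not tested. Arntl, its obligate partner, had 11.7 and 14.9 FPKM in CROC+K+M, 19.9, 19.4 and 7.96 FPKM in CROC+K, and 18.9 and 25.2 FPKM in FOC+K. CROC+K replicate 3 was the lowest library for Arntl, and CROC+K+M lay below FOC+K without overlap. The ratio of Arntl to Clock FPKM within a library was 0.931 and 0.888 in CROC+K+M, 1.06, 0.927 and 0.444 in CROC+K, and 1.03 and 1.33 in FOC+K, so that CROC+K replicate 3 departed in Arntl rather than in both partners.

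Of the inhibitors, Cry1, the stronger repressor of the cryptochromes, had 33.1 and 64.02 FPKM in CROC+K+M, 37.3, 53.6 and 51.3 FPKM in CROC+K, and 45.7 and 51.5 FPKM in FOC+K. The CROC+K+M libraries were the lowest and the highest of all 7. Cry2 had 2.80 and 1.25 FPKM in CROC+K+M, 2.46 FPKM, listed at 0 and 0.533 FPKM in CROC+K, and 0.441 and 1.42 FPKM in FOC+K. The groups overlapped, and these values correspond to roughly 0 to 55 fragments.

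Per3, the period gene least needed for the rhythm in mice, had 8.29 and 8.24 FPKM in CROC+K+M, 7.31, 11.8 and 13.0 FPKM in CROC+K, and 9.04 and 5.96 FPKM in FOC+K. It was highest in CROC+K replicates 2 and 3. Per1 had 0.685 and 0.589 FPKM in CROC+K+M, 0.469, 0.759 and 0.912 FPKM in CROC+K, and 0.323 and 0.704 FPKM in FOC+K. Per2 was listed at 0 and had 0.219 FPKM in CROC+K+M, had 0.482 FPKM, was listed at 0 and had 0.320 FPKM in CROC+K, and had 0.213 and 0.093 FPKM in FOC+K. The Per1 values correspond to about 6 to 18 fragments and the Per2 values to about 0 to 13, and both genes, which act as main repressors of the loop in adult mice, were below the filter and were not tested.

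The REV-ERB receptors differed widely in level. Nr1d1 had 34.7 and 27.9 FPKM in CROC+K+M, 34.3, 39.1 and 46.9 FPKM in CROC+K, and 21.1 and 29.2 FPKM in FOC+K. All 3 CROC+K libraries lay above both FOC+K libraries. Nr1d2 had 2.57 and 3.09 FPKM in CROC+K+M, 3.57, 0.760 and 2.54 FPKM in CROC+K, and 3.51 and 4.07 FPKM in FOC+K. CROC+K+M lay below FOC+K, while CROC+K overlapped both.

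Dbp, the D-box activator, had 57.7 and 59.6 FPKM in CROC+K+M, 51.6, 118.2 and 106.8 FPKM in CROC+K, and 69.3 and 42.5 FPKM in FOC+K. Replicates 2 and 3 of CROC+K exceeded the other 5 libraries and replicate 1 did not. In the GENCODE M21 annotation (GRCm38) Dbp shares 539 exonic bases, 18.0% of its own, with Sphk2 on the opposite strand, and no source used here says whether counting used strand. Sphk2, a sphingosine kinase, had 15.3 and 14.2 FPKM in CROC+K+M, 13.4, 28.4 and 21.9 FPKM in CROC+K, and 14.1 and 9.88 FPKM in FOC+K. Its pattern was similar to that of Dbp, with a Pearson r of 0.96 over 7 libraries. With Per3, which shares no exonic bases with another gene, the r of Sphk2 was 0.92. The part of Sphk2 in the Dbp values was not tested. Nr1d1 shares 8.55% of its exonic bases with Thra, which had 0.907 to 2.32 FPKM over the libraries, and Cry2 shares 4.67% with an antisense gene.

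The comparison of CROC+K versus FOC+K asks what vitrifying the recipient oocyte did in embryos that all received Kdm4a mRNA. Nr1d1 averaged 40.1 ± 6.39 FPKM in CROC+K and 25.1 ± 5.73 FPKM in FOC+K (SD, n = 3 and 2), and Dbp averaged 92.2 ± 35.6 FPKM in CROC+K and 55.9 ± 19.0 FPKM in FOC+K. On the log2(FPKM + 1) scale, which understates changes of low genes, the difference was 0.66 ± 0.29 (SE) for Nr1d1, with an unadjusted p of 0.054 (0.048 without CROC+K+M replicate 1) and an adjusted p of 0.9996 in limma, and 0.67 ± 0.41 for Dbp. Per3 gave 0.45 ± 0.36, Clock 0.04 ± 0.27, Cry1 -0.05 ± 0.35, Cry2 -0.10 ± 0.59, Arntl -0.55 ± 0.43 and Nr1d2 -0.65 ± 0.46.

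None of the 8 tested clock genes passed an adjusted p of 0.05 in this comparison by limma, and 0 of 8 had an unadjusted p under 0.05; over all 12274 genes tested, 0% and 2.18% did. In all, 4 of the 8 had a higher mean in CROC+K (background 47.3%), with a median log2 difference of -0.01 against -0.03 for all genes. Nr1d1 was the 1 member of 8 whose groups did not overlap, higher in CROC+K, against 9.65% of all genes in that direction and 19.1% in either, so that the members' share was near the background. When the libraries were scaled to equal FPKM sums, Nr1d1 was 43.2, 35.5 and 41.7 in CROC+K and 26.1 and 38.2 in FOC+K, and the groups overlapped. That scaling shifted the median of all genes to -0.30 in this comparison, -0.14 for CROC+K+M versus CROC+K and -0.44 for CROC+K+M versus FOC+K; relative to those medians the difference of Nr1d1 was 0.63, against 0.69 as deposited. With the split of libraries by Rn45s as a term, which leaves CROC+K replicate 1 as the only CROC+K library set directly against FOC+K, the difference was 0.45 ± 0.35 for Nr1d1, -0.07 ± 0.36 for Dbp and -0.0074 ± 0.39 for Per3. With each library left out in turn the difference of Dbp ranged from 0.32 (without FOC+K replicate 2) to 1.04 ± 0.30 (without CROC+K replicate 1, unadjusted p = 0.012, adjusted p = 0.35, limma). Without CROC+K replicate 1, 1479 of all 12274 genes had an unadjusted p under 0.05 in limma, against 268 with all 7 libraries. The difference of Arntl ranged from -0.75 (without CROC+K replicate 1) to -0.14 (without CROC+K replicate 3).

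The comparison of CROC+K+M versus CROC+K asks what melatonin did after vitrification. Clock averaged 14.6 ± 2.98 FPKM in CROC+K+M and 19.2 ± 1.56 FPKM in CROC+K (SD, n = 2 and 3), a log2 difference of -0.38 ± 0.27 with an adjusted p of 0.641 in limma. Dbp averaged 58.6 ± 1.36 FPKM in CROC+K+M and 92.2 ± 35.6 FPKM in CROC+K, a log2 difference of -0.56 ± 0.41 with an adjusted p of 0.648. Cry2 gave 0.75 ± 0.59, Nr1d2 0.32 ± 0.46, Cry1 -0.02 ± 0.35, Arntl -0.14 ± 0.43, Per3 -0.30 ± 0.36 and Nr1d1 -0.34 ± 0.29. For CROC+K+M versus CROC+K, 0 of 8 passed the adjusted threshold (0% of all genes) and 0 of 8 had an unadjusted p under 0.05 in limma, where 10.4% of all genes did.

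Of the 8 members, 6 had a lower mean with melatonin and 2 a higher one (background 54.1% higher), with a median of -0.22 against 0.06 for all genes. Clock was the 1 member without overlap, lower in CROC+K+M, against 11.2% of all genes in that direction and 23.4% in either. Scaled to equal FPKM sums, Clock was 8.9 and 16.7 in CROC+K+M and 23.7, 19.0 and 15.9 in CROC+K, and the groups overlapped. Without CROC+K+M replicate 1, the library with trophectoderm markers, 4 of 8 members had a higher mean (background 52.3%), the log2 difference of Clock was -0.19 ± 0.31, and Cry1 turned to 0.44 ± 0.33 and Arntl to 0.02 ± 0.54. The remaining CROC+K+M library is then assumed to vary like the other groups. With each library left out in turn, the difference of Dbp ranged from -0.93 ± 0.30 (without CROC+K replicate 1, unadjusted p = 0.020, adjusted p = 0.241, limma) to -0.34 (without CROC+K replicate 2). That of Cry2 ranged from 0.35 (without CROC+K replicate 2) to 1.24 ± 0.48 (without CROC+K replicate 1, unadjusted p = 0.041, adjusted p = 0.292, limma). Without CROC+K replicate 1, 1998 of all 12274 genes had an unadjusted p under 0.05 in limma here, against 1281 with all 7 libraries.

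CROC+K+M versus FOC+K sets vitrified oocytes with melatonin against fresh oocytes. Arntl averaged 13.3 ± 2.26 FPKM in CROC+K+M and 22.0 ± 4.41 FPKM in FOC+K (SD, n = 2 each), a log2 difference of -0.69 ± 0.47 with an adjusted p of 0.813 in limma. Clock gave -0.34 ± 0.30, Nr1d2 -0.32 ± 0.50, Cry1 -0.07 ± 0.38, Dbp 0.11 ± 0.45, Per3 0.15 ± 0.39, Nr1d1 0.32 ± 0.32 and Cry2 0.65 ± 0.64. For CROC+K+M versus FOC+K, 0 of 8 members passed the adjusted threshold (0% of all genes) and 0 of 8 had an unadjusted p under 0.05 in limma, where 6.46% of all genes did. Of the 8, 4 had a higher mean (background 52.9%), with a median of 0.02 against 0.04 for all genes; without CROC+K+M replicate 1 it was 5 of 8 (background 51.5%) with a median of 0.14. Clock, Arntl and Nr1d2, 3 of 8, did not overlap and were lower in CROC+K+M, against 19.7% of all genes in that direction and 41% in either. With the Rn45s split as a term, the difference was -0.06 ± 0.71 for Arntl and -0.999 ± 0.47 for Dbp. Both FOC+K libraries and no CROC+K+M library lay on the high side of that split. These values therefore hold no direct comparison of the groups and rest on CROC+K replicate 1 as the only link to FOC+K. Without CROC+K+M replicate 1 the differences were -0.52 ± 0.58 for Arntl, -0.15 ± 0.33 for Clock and -0.23 ± 0.63 for Nr1d2, and 0.39 ± 0.35 for Cry1. The comparisons share libraries, so their values are not independent of each other.

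**Figure D2:**
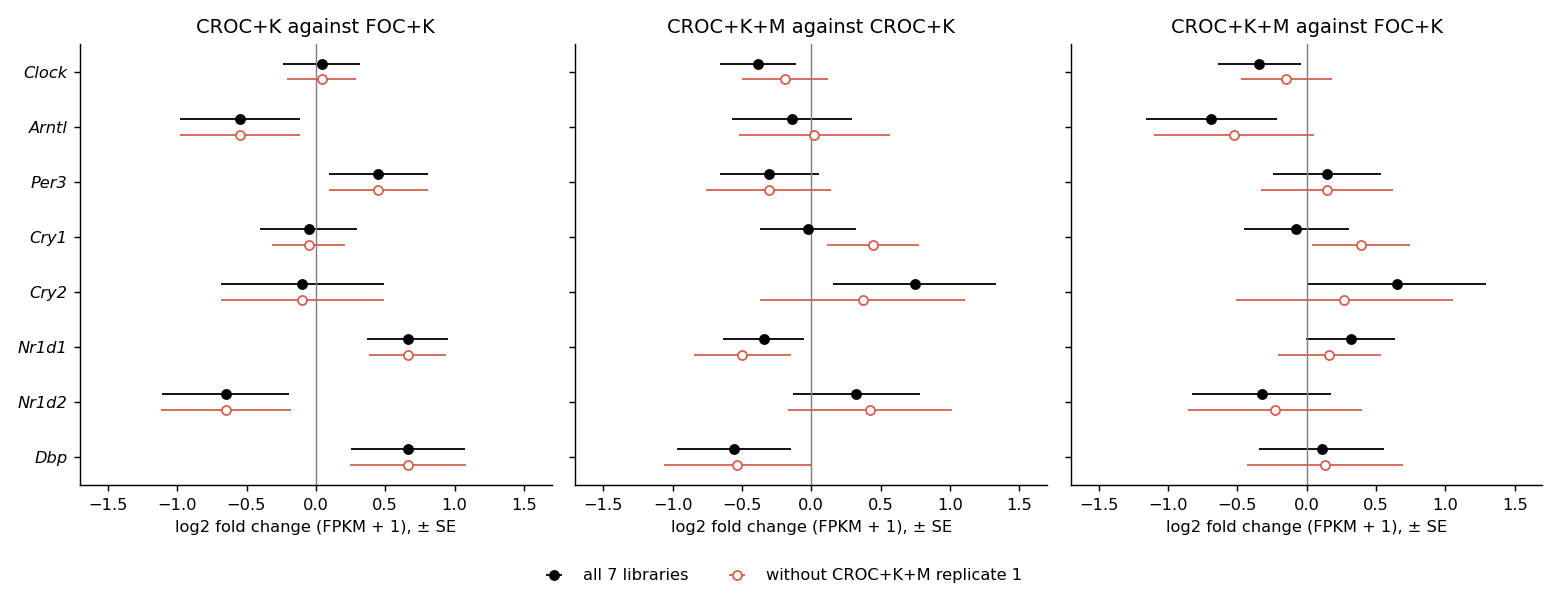
Log2 difference on the FPKM + 1 scale (horizontal axis; points, with bars of 1 SE) of the 8 tested clock genes in each comparison, with all 7 libraries (filled) and without CROC+K+M replicate 1 (open). Nr1d1 and Dbp are highest in CROC+K versus FOC+K at 0.66 and 0.67, and Cry1 is the member that moves most on the removal, to 0.44 in CROC+K+M versus CROC+K.

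The ratio of Nr1d1 to Arntl, the repressor to its target, needs no scaling between libraries. It was chosen after the values were seen. It was 2.98 and 1.88 in CROC+K+M, 1.73, 2.01 and 5.90 in CROC+K, and 1.11 and 1.16 in FOC+K. Both FOC+K libraries lay below the other 5. The ratio of Nr1d1 to Clock separated in the same way, so that the separation was not particular to Arntl. It was 2.77 and 1.67 in CROC+K+M, 1.82, 1.87 and 2.62 in CROC+K, and 1.15 and 1.54 in FOC+K. How many other gene ratios separate in this way was not counted. The ratio of Dbp to Arntl was 4.94 and 4.01 in CROC+K+M, 2.60, 6.08 and 13.4 in CROC+K, and 3.67 and 1.69 in FOC+K, and CROC+K overlapped FOC+K.

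Dbp and Per3 had the most similar pattern of the 28 pairs among the 8 tested members. Over 7 libraries Pearson's r of their log2(FPKM + 1) was 0.975 (exact permutation p = 0.00079, two-sided; 0.0222 adjusted over 28 pairs) and Spearman's rho was 0.929 (exact permutation p = 0.0067, 0.189 adjusted). Without the 2 libraries farthest from the median of Per3, r was 0.984 over 5. Scaled to equal FPKM sums, r was 0.956 with an adjusted exact permutation p of 0.05. The 3 libraries with Rn45s above 1000 FPKM and the other 4 are too few for an r of their own. The pair was singled out after the values were seen, and high correlations were not limited to it. Of the other 12273 genes, 156 (1.27%) had an r above 0.9 with Dbp. Among these Per3 ranked as number 8, and Dbp was number 6 for Per3. The other 27 pairs did not pass the adjusted threshold.

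**Figure D3:**
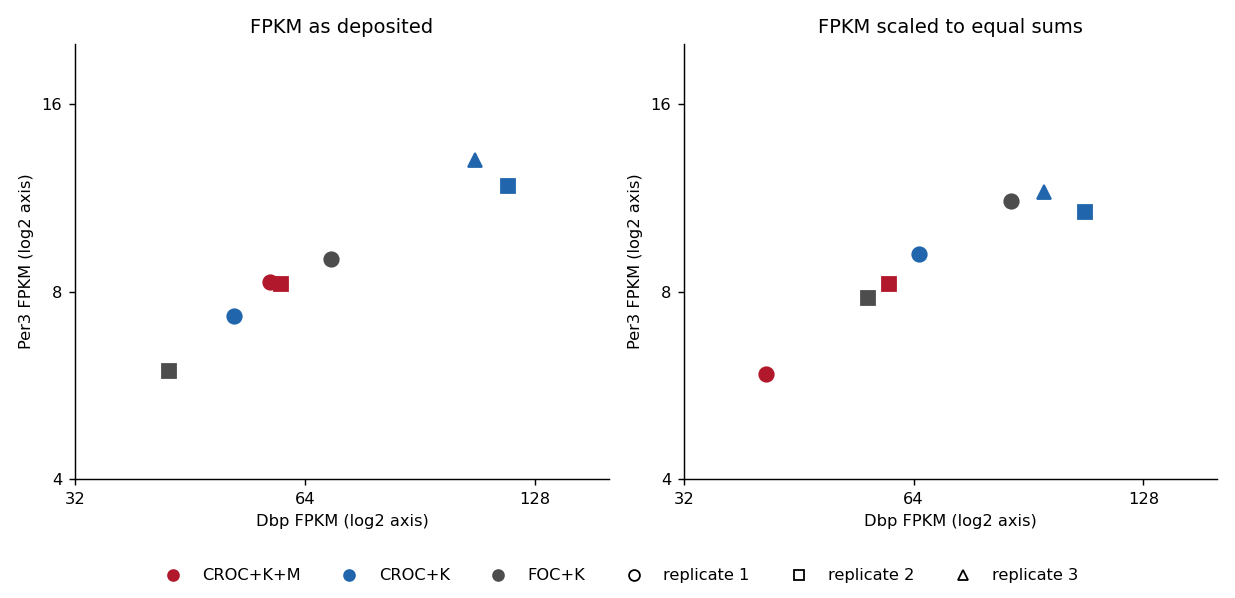
Per3 FPKM against Dbp FPKM (both axes log2) in each of the 7 libraries, as deposited (left) and scaled to equal FPKM sums (right); colour gives the group and marker shape the replicate. The libraries follow 1 line in both panels, with CROC+K replicates 2 and 3 at the high end of Dbp.

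Kdm4a, the injected gene, had 2797 and 689 FPKM in CROC+K+M, 497, 4051 and 4949 FPKM in CROC+K, and 2014 and 816 FPKM in FOC+K. It was highest in the CROC+K libraries in which Dbp, Per3 and the 2-cell markers were highest. Over 7 libraries its r was 0.83 with Per3 (exact permutation p = 0.020) and 0.82 with Dbp (exact permutation p = 0.027); rho was 0.857 (exact permutation p = 0.024) and 0.714 (exact permutation p = 0.088). Adjusted over the 8 members tested against Kdm4a, both r had a p of 0.106 and neither passed. Without the 2 libraries farthest from the median of Kdm4a, r was 0.952 and 0.895 over 5 libraries. Scaled to equal FPKM sums, r was 0.46 with Per3 (exact permutation p = 0.29) and 0.59 with Dbp (exact permutation p = 0.16). Unscaled, r was -0.09 with Clock, -0.58 with Arntl, -0.03 with Cry1, -0.58 with Cry2, 0.47 with Nr1d1 and -0.65 with Nr1d2. For Nr1d2 rho was -0.786 (exact permutation p = 0.048, 0.192 adjusted). For Cry2 r was -0.80 when scaled to equal FPKM sums (exact permutation p = 0.039, unadjusted). The part of the Kdm4a mRNA in these levels was not tested.

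By Pearson's r over 7 libraries, the 2 tested genes most like each member were Dbf4 (0.990) and Havcr2 (0.986) for Clock, Lsm14b (0.991) and Chac1 (0.986) for Arntl, Adss (0.985) and Muc13 (0.982) for Per3, Jade2 (0.986) and Cntnap1 (0.977) for Cry1. For Cry2 they were Pstk (0.987) and Mrpl46 (0.986), for Nr1d1 Ccdc172 (0.994) and Tub (0.982), for Nr1d2 Wdr25 (0.974) and Dpp7 (0.973), and for Dbp Mdm4 (0.994) and Tox4 (0.991). No clock gene was among them, and each member had between 30 (Nr1d1) and 156 (Dbp) genes with an r above 0.9.

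The other parts of the clock were represented unevenly. Rora, an activator that competes with the REV-ERBs, had 19.8 and 12.6 FPKM in CROC+K+M, 13.1, 20.5 and 27.1 FPKM in CROC+K, and 11.3 and 13.8 FPKM in FOC+K, while its paralog Rorb was listed at 0 in all 7 libraries. Arntl2, the paralog of Arntl, ranged from 7.90 to 17.01 FPKM and Npas2, the paralog of Clock, from 0.11 to 1.15 FPKM. Nfil3, which represses through the D-box that DBP activates, had 12.2 and 17.5 FPKM in CROC+K+M, 22.1, 23.6 and 16.5 FPKM in CROC+K, and 16.3 and 18.1 FPKM in FOC+K. Tef and Hlf, the relatives of DBP, ranged from 2.53 to 6.39 and from a listed 0 to 1.16 FPKM, far below Dbp. Of the E-box repressors, Bhlhe40 ranged from 2.28 to 18.1 FPKM, highest in CROC+K replicate 1, and Bhlhe41 from 0.30 to 1.34 FPKM.

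**Figure D4:**
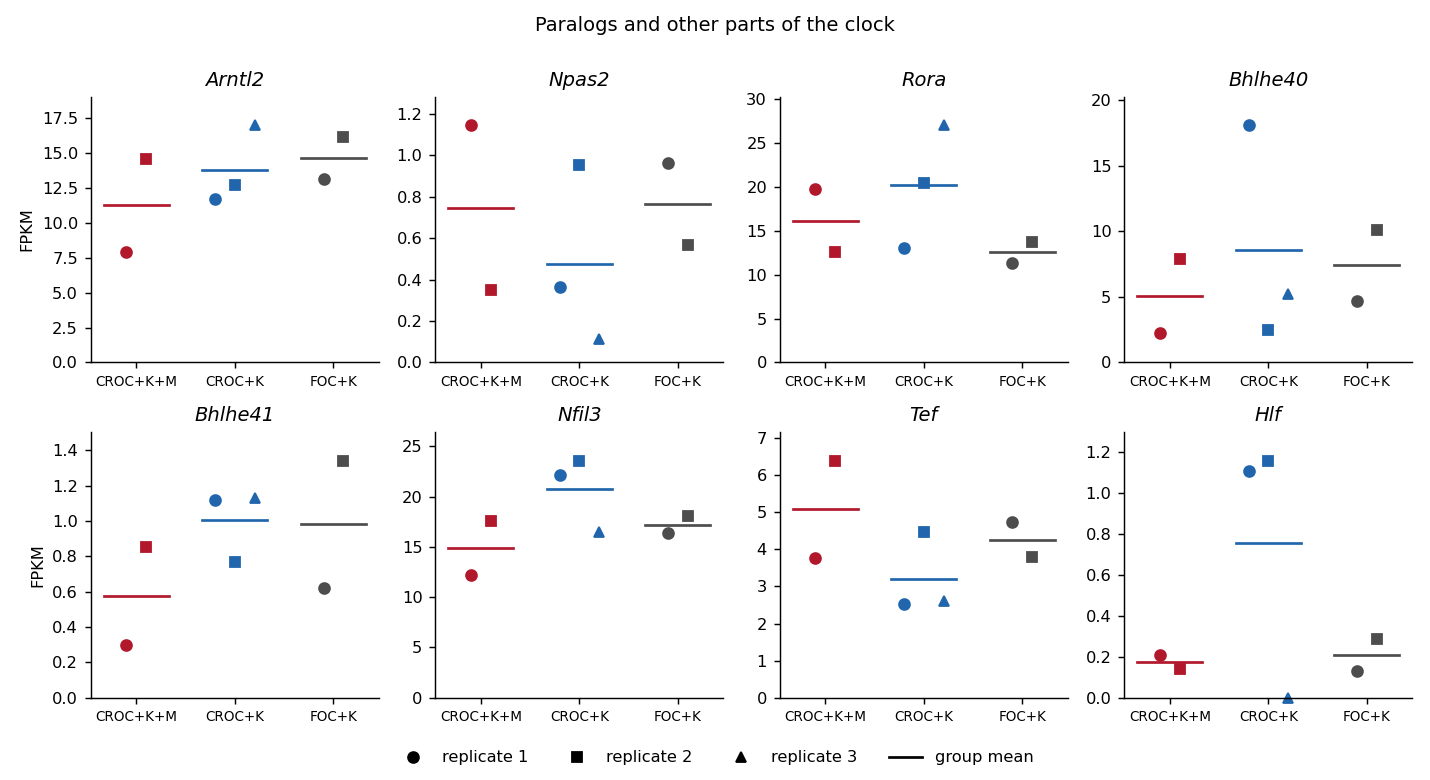
FPKM (vertical axis, linear, its own scale per gene) of 8 paralogs and other parts of the clock in each library, by group from left to right; points are libraries, marker shape gives the replicate and lines are group means. Rora is highest in CROC+K replicate 3 at 27.1 FPKM and Bhlhe40 in CROC+K replicate 1 at 18.1 FPKM; Rorb, listed at 0 throughout, is not drawn.

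Of the 10 paralogs and other parts, 7 were tested, and 0 passed an adjusted p of 0.05 or an unadjusted p of 0.05 in limma in any comparison. Their median log2 difference was 0.03 in CROC+K versus FOC+K, -0.37 in CROC+K+M versus CROC+K and -0.22 in CROC+K+M versus FOC+K, where the medians of all genes were -0.03, 0.06 and 0.04. In the same order 4, 1 and 2 of 7 had a higher mean, against 47.3%, 54.1% and 52.9% of all genes. An unadjusted p under 0.05 in limma was found for 2.18%, 10.4% and 6.46% of all genes. Under equal FPKM sums 2, 1 and 0 of 7 had a higher mean, against 22.7%, 40.7% and 24.7% of all genes. Rora gave 0.60 ± 0.38 in CROC+K versus FOC+K and Nfil3 -0.46 ± 0.31 in CROC+K+M versus CROC+K, the smallest unadjusted p values of the list in those comparisons (0.157 and 0.171, limma). Without CROC+K+M replicate 1 the median in CROC+K+M versus CROC+K was -0.11 with 3 of 7 higher, and in CROC+K+M versus FOC+K it was 0.012 with 5 of 7 higher.

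Of 32 regulators of the clock proteins (kinases, ubiquitin ligases and chromatin cofactors), 30 were tested, and 0 passed the adjusted threshold in any comparison. Of these, 1 gene, Kat2b, an acetyltransferase cofactor, had an unadjusted p under 0.05: 3.41, 1.19 and 1.33 FPKM in CROC+K against 5.28 and 5.79 FPKM in FOC+K, a log2 difference of -1.21 ± 0.50 (unadjusted p = 0.045, adjusted p = 0.9996, limma); 2.18% of all genes had such a p. Its groups did not overlap, as for 5 of the 30 regulators and 19.1% of all genes. Fbxl21, a ubiquitin ligase part that acts on cryptochromes, gave 0.71 ± 0.36 and Usp2, a deubiquitinase, 0.51 ± 0.29 in the same comparison. Ciart, a repressor of the CLOCK and ARNTL pair, had 11.2 and 16.96 FPKM in CROC+K+M, 46.9, 45.7 and 11.1 FPKM in CROC+K, and 14.8 and 17.4 FPKM in FOC+K; it was named after its values were seen. Of the 30 regulators, 20 had a higher mean in the CROC+K versus FOC+K comparison, 14 in that of CROC+K+M with CROC+K, and 17 in that of CROC+K+M with FOC+K. Their median log2 differences in those comparisons were 0.06, -0.05 and 0.08. Over all genes 47.3%, 54.1% and 52.9% had a higher mean, with medians of -0.03, 0.06 and 0.04. Under equal FPKM sums the counts of regulators were 6, 11 and 4, where 22.7%, 40.7% and 24.7% of all genes had a higher mean.

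Of 11 output genes, 9 were tested, and 0 passed the adjusted threshold in any comparison. In any comparison 1 of them had an unadjusted p under 0.05: Por, the partner reductase of cytochrome P450 enzymes, had 6.25 and 2.17 FPKM in CROC+K+M and 1.86, 1.35 and 0.38 FPKM in CROC+K, a log2 difference of 1.19 ± 0.49 (unadjusted p = 0.044, adjusted p = 0.466, limma). Of all genes, 10.4% had such a p in this comparison. The groups did not overlap, as for 23.4% of all genes. The higher value came from the library with trophectoderm markers, and without it the difference was 0.59 ± 0.53, with 0 of 9 outputs at an unadjusted p under 0.05 in limma. Tsc22d3, a glucocorticoid-responsive gene, had 2.03 and 0.70 FPKM in CROC+K+M, 1.69, 4.05 and 8.58 FPKM in CROC+K, and 7.37 and 3.84 FPKM in FOC+K. Its log2 difference was -1.49 ± 0.65 in CROC+K+M versus FOC+K (unadjusted p = 0.052, adjusted p = 0.757, limma). Over the outputs 2, 4 and 3 of 9 had a higher mean in the 3 comparisons, taken in the order above, with medians of -0.33, -0.02 and -0.16, against 47.3%, 54.1% and 52.9% of all genes and medians of -0.03, 0.06 and 0.04. Without CROC+K+M replicate 1 the median of CROC+K+M versus CROC+K was 0.31 with 5 of 9 higher.

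Melatonin, the hormone given to the CROC+K+M embryos, signals in many cells through the receptors Mtnr1a and Mtnr1b. Both were listed at 0 in all 7 libraries. Of the 9 genes on the melatonin list, 6 were tested and 0 passed the adjusted threshold or an unadjusted p of 0.05 in limma in any comparison. Such an unadjusted p was found for 2.18% of all genes in CROC+K versus FOC+K. It was found for 10.4% in CROC+K+M versus CROC+K and 6.46% in CROC+K+M versus FOC+K. Calm2, 1 of the calmodulin genes, had 3013 and 3122 FPKM in CROC+K+M, 2469, 2355 and 2636 FPKM in CROC+K, and 2411 and 1691 FPKM in FOC+K, and gave 0.60 ± 0.31 in CROC+K+M versus FOC+K. Calm3 gave 0.80 ± 0.44 and Nqo2, a quinone reductase that binds melatonin, 1.07 ± 0.73 in CROC+K+M versus CROC+K; Nqo2 was at 6.14 and 0.51 FPKM in CROC+K+M and at 1.76, 0.06 and 0.30 FPKM in CROC+K, and its difference was -0.05 ± 0.68 without CROC+K+M replicate 1. Calmodulin genes have near-identical coding sequences, so their values are uncertain. In CROC+K versus FOC+K the median of the list was 0.16, with 5 of 6 members higher, and in CROC+K+M versus FOC+K it was 0.65, with 4 of 6 higher (0.024 and 3 of 6 without CROC+K+M replicate 1). In CROC+K+M versus CROC+K the median was 0.34, with 4 of 6 higher, and -0.17, with 2 of 6 higher, without CROC+K+M replicate 1. Over all genes the medians in these comparisons, in the order just given, were -0.03, 0.04 and 0.06, with 47.3%, 52.9% and 54.1% higher. Under equal FPKM sums 2, 4 and 4 of 6 members were higher, with medians of -0.10, 0.12 and 0.08. Over all genes 22.7%, 24.7% and 40.7% then were, with medians of -0.30, -0.44 and -0.14.

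**Figure D5:**
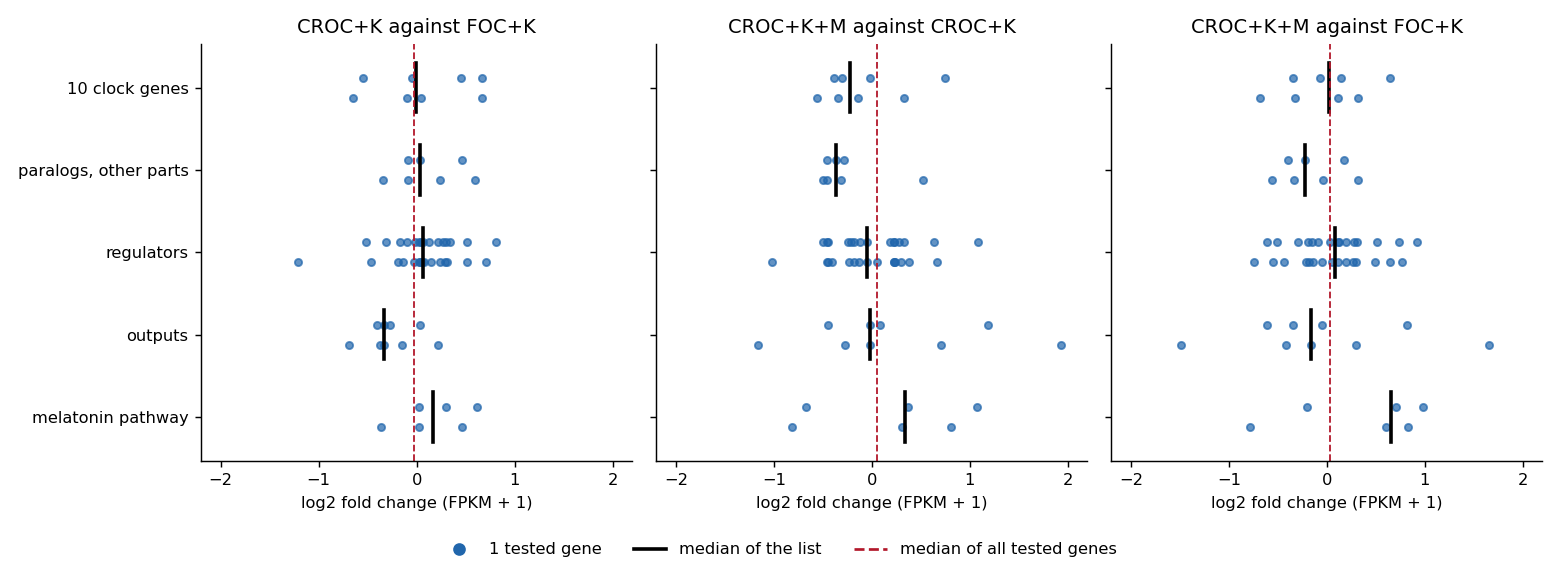
Log2 difference on the FPKM + 1 scale (horizontal axis) of each tested gene of the clock gene lists (rows) in each comparison; points are genes, black bars the median of the list and the dashed line the median of all 12274 genes tested. The 10 clock genes have medians of -0.01, -0.22 and 0.02 from left to right, and no gene drawn passed the adjusted threshold.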

How the data were processed

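RNA of pooled SCNT embryos was sequenced in 7 libraries (CROC+K+M 2, CROC+K 3, FOC+K 2), grouped by sample title. The deposited table holds 1 FPKM per gene and library, made by the authors; the tools listed in the submitters' processing notes are Cufflinks 2.2.1, Cuffnorm, STAR 2.5.2b and R 3.3.2, and the build is mm9. Per the labels' protocols, a SMARTer Ultra Low Input kit and ScriptSeq v2 were combined for cDNA and libraries. Not given in the sources used here are the annotation, the scaling between libraries and the use of strand. FPKM values are not counts, so they were tested as log2(FPKM + 1) with limma 3.58.1 (R 4.3.3), trend on, 1 term for the group, 4 residual degrees of freedom, two-sided, with Benjamini-Hochberg adjustment over 12274 genes with an FPKM of at least 1 in 2 libraries, after 1274 small and ribosomal RNA rows were left out. The fit was checked on simulated data. Whether replicates came from separate collections of embryos is known only from the word biological in the labels.

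Correlations over libraries used exact permutation tests (scipy 1.17.1); figures used matplotlib 3.10.9. Gene overlaps came from GENCODE M21 and promoters from RefSeq GRCm38.p6; because the table was made on mm9, no coordinates were joined to its values. The members and the other gene lists were chosen with earlier results of these data known. Named genes were all 10 members, the paralogs and other parts of the clock (1 of which is not reported here), the melatonin receptors, those among up to 3 per list and comparison with the smallest unadjusted p that the text describes, and for each tested member the 2 genes most like it; the Dbp and Per3 pair, the Kdm4a relation, Sphk2, Ciart, Bmp15 and Gdf9 were added after the values were seen. Alternatives were a pseudocount of 0.1, no filter, a mean FPKM of at least 2, equal FPKM sums, quantile normalization, limma array weights, a replicate block, a term for Rn45s above 1000 FPKM, and each library left out in turn; leaving out CROC+K replicate 1 and CROC+K+M replicate 1 together, and the settings of the Dbp and Per3 correlation, were added later. The labels do not say that equal replicate numbers mark a shared batch, so numbers were not used as pairs.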

Additional observations from a re-analysis of the deposited data

How the results depend on the processing

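None of the 8 tested clock genes passed an adjusted p of 0.05 in limma in any of the 3 comparisons under any alternative. The smallest adjusted p of these genes over all settings was 0.147 in limma. Per1 and Per2, which the setting with no filter also fits, are not covered here. Of 381 fold changes of members under alternatives, 345 kept their sign and 36 turned; none of the turned differences had passed the threshold. The cause was not tested for any of them.

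Equal FPKM sums turned Clock to -0.28 in CROC+K versus FOC+K, and Per3 to -0.38, Nr1d1 to -0.26 and Dbp to -0.48 in CROC+K+M versus FOC+K, where 1 of 8 members then had a higher mean. On the log2(FPKM + 1) scale this scaling moves low genes less than high ones, so the median of all genes is only a rough reference. In CROC+K+M versus FOC+K, Cry2 went from 0.65 to 0.30 and Dbp from 0.11 to -0.48. Relative to the median of all genes Clock (0.017), Per3 (0.059) and Nr1d1 (0.18) kept their sign. Dbp was at -0.04 relative to it, against 0.07 as deposited. Quantile normalization gave -0.00024 for Clock and 0.20 for Cry2 in CROC+K versus FOC+K, and -0.19 for Dbp in CROC+K+M versus FOC+K. Array weights gave 0.039 for Cry1 in CROC+K versus FOC+K. A term for Rn45s above 1000 FPKM gave -0.0074 for Per3, 0.89 for Cry2 and -0.072 for Dbp in CROC+K versus FOC+K, 0.068 for Arntl in CROC+K+M versus CROC+K, and -0.54 for Per3, 0.55 for Nr1d2 and -0.999 for Dbp in CROC+K+M versus FOC+K. With that term CROC+K+M and FOC+K are not compared directly, and CROC+K replicate 1 is the only link to FOC+K. Requiring a mean FPKM of at least 2 left Cry2 untested and 1 member with a higher mean in CROC+K+M versus CROC+K. Leaving out CROC+K replicate 1 and CROC+K+M replicate 1 together gave 0.11 for Cry1 in CROC+K versus FOC+K, 0.23 for Arntl and 0.28 for Cry1 in CROC+K+M versus CROC+K, where 4 members had a higher mean, and 0.39 for Cry1 in CROC+K+M versus FOC+K.

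With each library left out in turn, the ranges in CROC+K versus FOC+K were -0.020 to 0.087 for Clock, -0.15 to 0.11 for Cry1 and -0.59 to 0.30 for Cry2. In CROC+K+M versus CROC+K they were -0.54 to 0.068 for Arntl, -0.49 to 0.44 for Cry1 and -0.073 to 0.62 for Nr1d2 (0.71 with both replicates 1 left out), with 2 to 4 members higher. In CROC+K+M versus FOC+K they were -0.12 to 0.41 for Per3, -0.54 to 0.39 for Cry1 and -0.24 to 0.46 for Dbp. The count of all genes past the adjusted threshold, 0 in each comparison, was 13, 22 and 30 with no filter on low values, and ranged from 0 to 658 in CROC+K+M versus CROC+K and from 0 to 546 in CROC+K+M versus FOC+K, the highest counts coming without CROC+K+M replicate 2, which leaves the library with trophectoderm markers.

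The r of Dbp and Per3 was 0.971 to 0.995 with each library left out and 0.955 after quantile normalization, but the adjusted exact permutation p rose to 0.067 after quantile normalization, to 0.05 with equal FPKM sums (r = 0.956) and to at most 0.156 with 6 libraries.

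Same-numbered libraries of different groups deviated with correlations of -0.46 to 0.03. In a group of 2 libraries the deviations mirror each other, so these values cannot decide whether the numbers mark a shared batch. A replicate block gave 0 genes past the threshold in each comparison and turned 1 member, Cry1, to 0.042 in CROC+K+M versus CROC+K.

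The 2 or 3 libraries per group limit every comparison, and few fragments limit Per1, Per2 and Cry2.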
